A study of Mus musculus with 9 samples.

Results

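NRF2, encoded by Nfe2l2, and the antioxidant genes around it were followed in mouse melanocyte stem cells after radiation or a skin carcinogen. The set holds 34 genes chosen by name, namely the regulators of NRF2, its well-known target genes and enzymes of the same redox pathways. All 34 were found by symbol among the 55359 genes of the deposited table, and all 34 were tested. Radiation was represented by 3 libraries from mice given 5 Gy (called IR), the carcinogen by 3 libraries from mice given DMBA, and the baseline by 3 libraries from mice given vehicle. DMBA is a polycyclic aromatic hydrocarbon used to start skin tumours in mice. Every mouse carried the Dct-H2B-GFP KI/+ genotype, a nuclear GFP reporter allele named for the melanocyte lineage gene Dct, and cells were purified from skin by FACS. The labels do not state age, sorting gate, time after treatment, DMBA dose, or whether a library came from 1 animal or several. P-values therefore measure the spread between these libraries, which may be technical in part. The question addressed here was whether either stress changed the level of these genes, and how far their levels followed Krt14, the basal keratinocyte keratin that marks epidermal content.

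As background, NRF2 is a transcription factor that is normally held at a low protein level by KEAP1, an adaptor that hands it to a cullin ubiquitin ligase. Oxidants and electrophiles modify KEAP1, NRF2 then accumulates, pairs with a small MAF protein such as MAFG and binds antioxidant response elements in its target genes. The control acts largely on the protein, so that the Nfe2l2 transcript level is not a readout of NRF2 activity. Targets make and recycle glutathione, run the thioredoxin system, supply NADPH, conjugate and export electrophiles, and break down haem and store iron. Pigment cells are exposed to the oxidising chemistry of melanin synthesis, and NRF2 is also active in keratinocytes, the neighbours of these stem cells in the hair follicle.

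The antioxidant response element has a short core, searched here as TGACNNNGC on both strands of the RefSeq promoter windows of build GRCm38.p6, which run from 250 bases before to 50 bases after each listed start and are 300 bases long. Windows were found for 28 of the 34 genes, and no window was in the table for Gsta4, Gsr, Hmox1, Gclc, Prdx6 and Abcc1. The core was present in 12 of 39 windows of these genes (30.8%) and in 4071 of all 32851 windows (12.392%). Counted by gene, 11 of 28 held it, against 13.99% of all genes in the table. The stricter form TGACTCAGC, whose matches are a subset of the first, stood in 2 of the 39 windows, those of Me1 and Prdx1, and in 0.454% of all windows. A match describes these letters and does not show binding. The 6 windows below, each 29 bases long and read 5′ to 3′, are shown because they put the core of a regulator (Nfe2l2, Mafg) beside those of target enzymes, with the core in capitals. Me1 lies at chr9:86695902-86695930 on the minus strand, and its core starts 6 bases before the listed start. Prdx1 lies at chr4:116685456-116685484, with the core 133 bases before the start. Nfe2l2 lies at chr2:75704885-75704913, with the core 240 bases before the start. Gclm lies at chr3:122245413-122245441, with the core 134 bases before the start. Txnrd1 lies at chr10:82859104-82859132, with the core 92 bases before the start. These last 4 were also read from the minus strand, and Mafg, at chr11:120633751-120633779 with the core 222 bases before the start, was read from the plus strand.
Me1: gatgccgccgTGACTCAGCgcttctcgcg
Prdx1: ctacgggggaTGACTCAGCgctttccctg
Nfe2l2: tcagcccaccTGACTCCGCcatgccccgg
Gclm: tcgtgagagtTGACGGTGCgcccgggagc
Txnrd1: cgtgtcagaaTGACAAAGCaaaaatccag
Mafg: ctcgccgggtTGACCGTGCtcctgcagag
Me1 and Prdx1 shared the same 9-base core, while the other 4 cores differed from it and from each other in the bases between TGAC and the closing GC.

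The libraries held between 6938406 and 8156905 counts, and mitochondrially encoded genes took between 5.05 and 7.19% of them. IR 2 and vehicle 2 stood slightly apart, each with a mean correlation of 0.892 with the other libraries, so Hmox1, Gpx2, Cat, Aldh3a1 and Flvcr1, whose values or calls rest on one of them, are also given without both. DMBA 3 came next, at 0.899, and had the highest mitochondrial share, 7.19%. That library was left out only on its own. The labelled cell type was matched by its markers: Dct lay between 360.7 and 555.9 FPKM and Kit between 139.2 and 220.7 FPKM, where FPKM is the read count scaled by exon length and library total. Among the 13 melanocyte markers, 12 averaged over 1 FPKM and Oca2 did not. Keratinocyte markers were abundant too, and unequally so. The summed level of 16 basal keratinocyte markers was 3761.2, 801.9 and 1377.8 FPKM in the IR libraries, 2567.3, 4028.6 and 3637.8 FPKM in the DMBA libraries and 1763.1, 1463.3 and 2220.8 FPKM in the vehicle libraries. All 3 DMBA libraries lay above all 3 vehicle libraries, by 1595.5 FPKM on average (exact permutation test, two-sided, p = 0.1, the smallest that 3 against 3 libraries allow), while the IR libraries spanned both. The 13 melanocyte markers summed to between 1638.4 and 2299.9 FPKM. The macrophage and dendritic cell sum lay between 21.2 and 54.4 FPKM, and the fibroblast, endothelial and red blood cell sums stayed at or below 2.36 FPKM in every library. Only 2 of the 12 macrophage and dendritic cell markers averaged over 1 FPKM, Cd68 (19.61 to 40.08 FPKM) and Cd74 (1.56 to 27.24 FPKM). Ptprc reached at most 0.16 FPKM, and Lyz2 and Tyrobp had 0 counts. In bulk libraries, fewer cells of a type and less RNA per cell cannot be told apart.

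Per unit of length, the most abundant of the 34 transcripts were those of the NRF2 regulator Sqstm1 and the ferritins. Mean FPKM over the 9 libraries was 261.6 for Sqstm1, 236.0 for Ftl1 and 169.5 for Fth1, and these 3 genes made up between 47.9 and 54.9% of the summed FPKM of all 34. They were followed by the glutathione transferases Gstm1, at 81.1 FPKM, and Gstp1, at 66.0 FPKM, and by Nfe2l2 itself at 62.2 FPKM. Between 10 and 100 FPKM lay 15 genes, and between 1 and 10 FPKM lay 14, among them Keap1 (4.82 FPKM), Gclm (3.93 FPKM) and Hmox1 (8.22 FPKM). The 2 genes under 1 FPKM were Gpx2 (0.801 FPKM) and Slc7a11 (0.0778 FPKM). The summed level of all 34 was between 1118.7 and 1396.4 FPKM in the 9 libraries. These 3 abundant genes varied little: the highest library exceeded the lowest by 1.28-fold for Ftl1, 1.48-fold for Sqstm1 and 1.57-fold for Fth1 in CPM. CPM is the count scaled to the library total after adjusting that total by the TMM factor of edgeR. The range was 18.4-fold for Me1, 20.7-fold for Gsta4 and 49.2-fold for Gpx2.

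**Figure D1:**
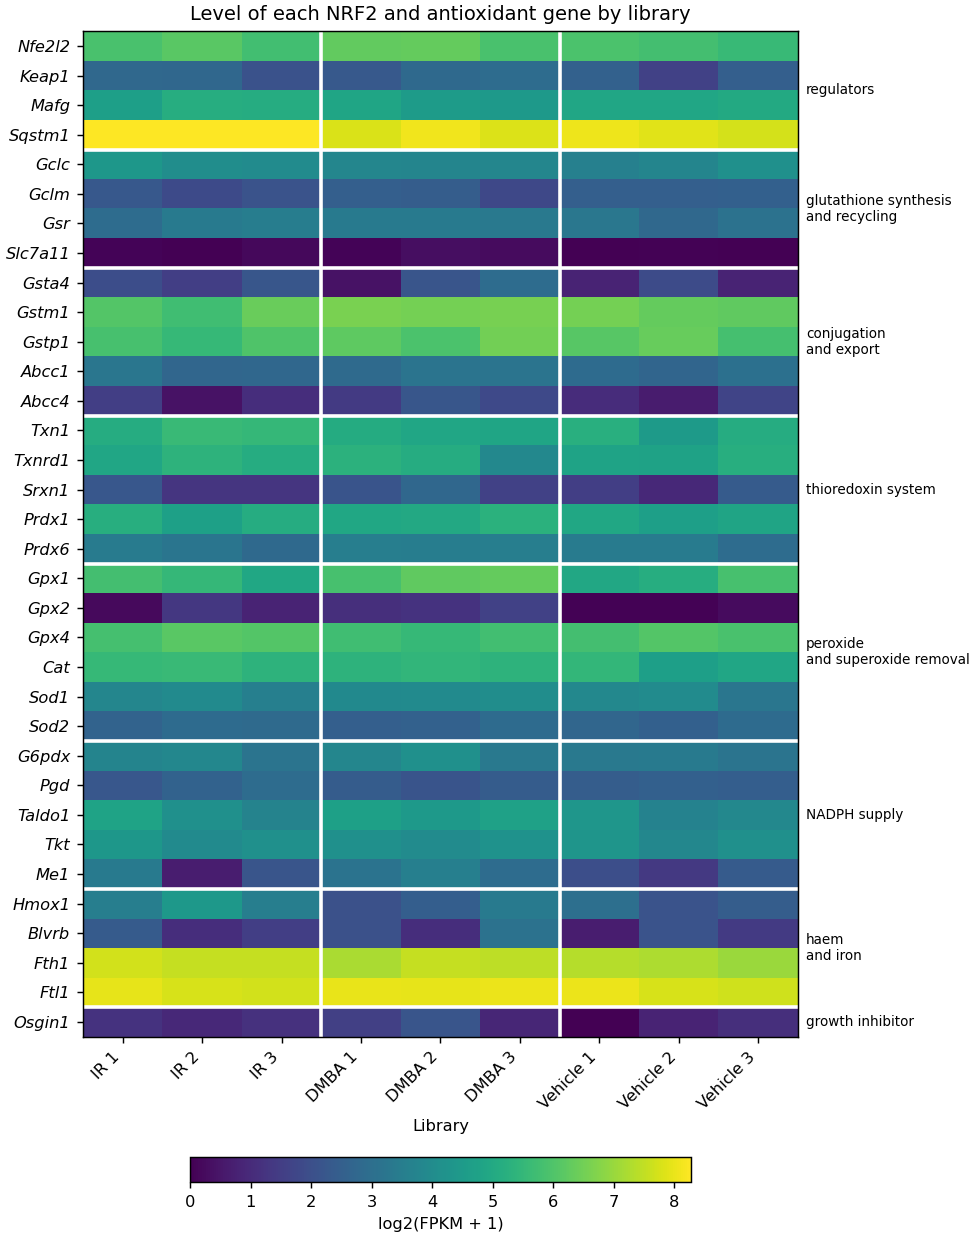
Level of each of the 34 genes in each of the 9 libraries as log2(FPKM + 1), with genes in rows by role and libraries in columns, IR, DMBA and vehicle from left to right. Sqstm1, Fth1 and Ftl1 form the bright rows in every library, and Slc7a11 and Gpx2 the dark ones, with Gpx2 at 0.04, 0.04 and 0.18 FPKM in the vehicle libraries.

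No gene of the set passed the test in any comparison of groups. The test was the quasi-likelihood test of edgeR on counts, its p-values adjusted after Benjamini and Hochberg over 16051 genes, and calls were made below an adjusted p of 0.05. For IR against vehicle, 0 of 34 were called, where 0.735% of all genes tested were. At an unadjusted p under 0.05, 5 of 34 were higher after IR (Hmox1, Fth1, Sqstm1, Gpx2 and Cat) and 0 lower, against 4.93% and 3.33% of all genes (8.26% in either direction). The median log2 fold change was 0.22 with 28 of 34 positive, beside a median of -0.00 over all genes tested. In 3 genes (Hmox1, Fth1 and Sqstm1) every IR library lay above every vehicle library and in 1 (Gclm) below, against 7.67% and 6.16% of all genes. Overlap was judged on CPM.

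For DMBA against vehicle, 0 of 34 were called, where 0.0374% of all genes tested were. At an unadjusted p under 0.05, 5 of 34 were higher after DMBA (Gpx2, Gpx1, Me1, Taldo1 and Nfe2l2) and 0 lower, against 3.85% and 2.85% of all genes (6.7% in either direction). The median log2 fold change was 0.23 with 24 of 34 positive, beside 0.01 over all genes tested. Every DMBA library lay above every vehicle library for 5 genes (Slc7a11, Prdx1, Gpx2, Taldo1 and Me1) and below for 4 (Mafg, Gclm, Gpx4 and Pgd), against 7.51% and 6.19% of all genes. For IR against DMBA, 0 of 34 were called, where 0.978% of all genes tested were. At an unadjusted p under 0.05, 4 were higher after IR (Sqstm1, Hmox1, Mafg and Gpx4) and 2 lower (Gpx1 and Gstm1), against 4.59% and 3.53% of all genes (8.12% in either direction). The median was -0.15 with 12 of 34 positive, beside -0.02 over all genes, and 6 genes lay wholly above and 3 wholly below, against 7.89% and 6.98% of all genes. DESeq2 and limma also called 0 in each comparison, limma having tested 33 of the 34. The comparisons with vehicle share the vehicle libraries, and IR against DMBA shares the IR or the DMBA libraries with each of them. Gpx2 and Slc7a11 passed the filter on low counts only through IR and DMBA libraries, so they could only count as higher than vehicle, and the counts and medians against vehicle include them. Leaving both out, 4 genes were higher than vehicle after IR and 4 after DMBA at an unadjusted p under 0.05, and 3 lay wholly above vehicle after DMBA.

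**Figure D2:**
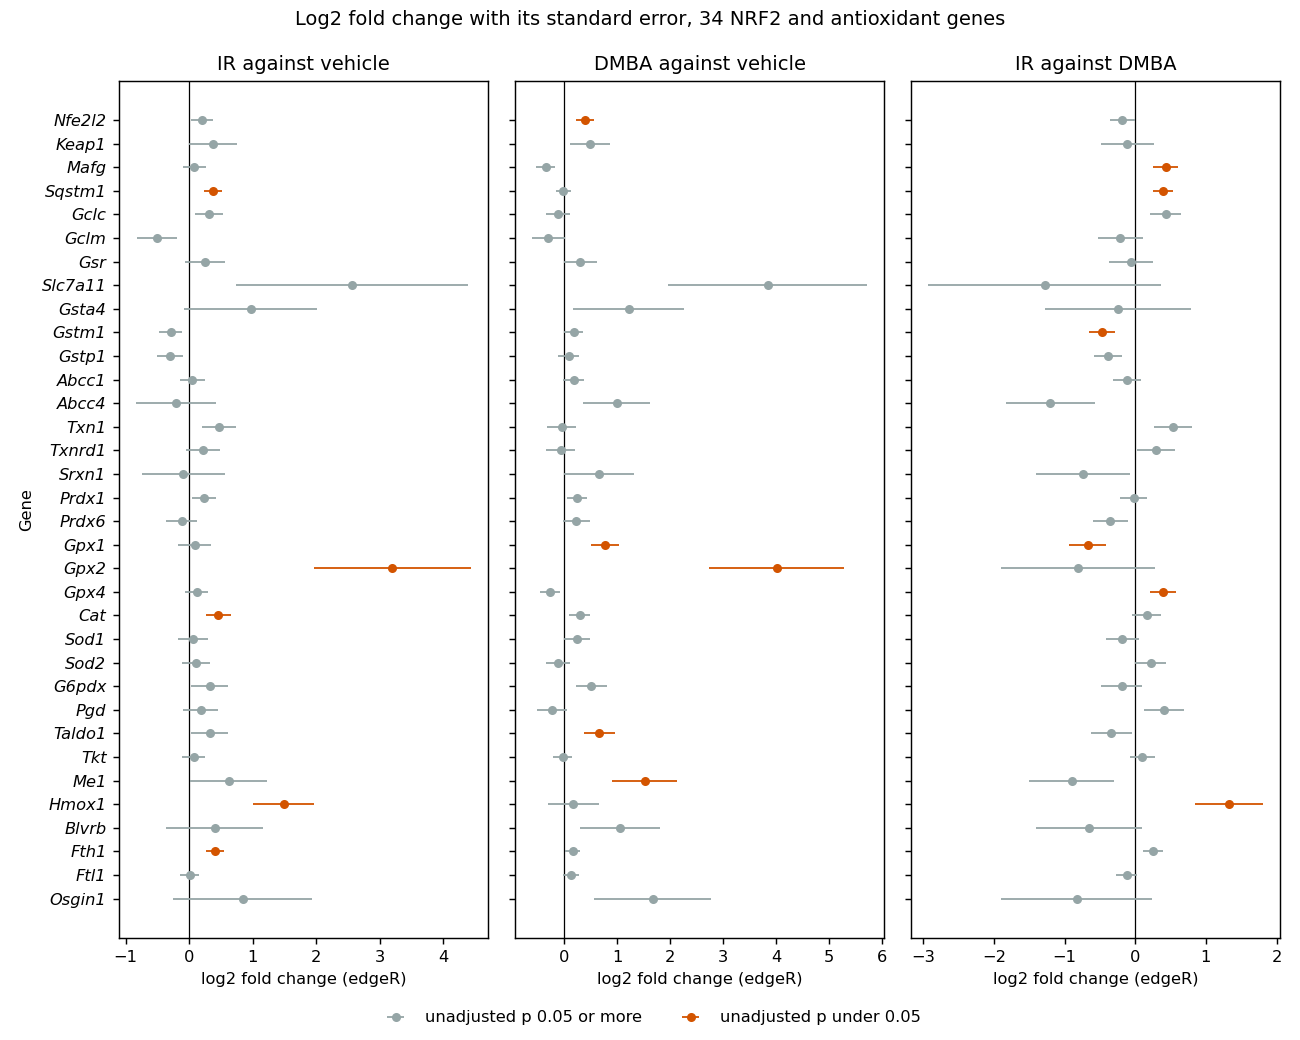
Log2 fold change (points) with its standard error (bars) for each of the 34 genes, in panels for IR against vehicle, DMBA against vehicle and IR against DMBA, with genes at an unadjusted p under 0.05 in orange. Hmox1 stands at 1.49 for IR against vehicle and at 0.17 for DMBA against vehicle, while Me1 stands at 0.62 and 1.52, and the widest bars belong to the low-count genes Slc7a11, Gpx2, Osgin1 and Gsta4.

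Among the regulators, the Nfe2l2 transcript (ENSMUSG00000015839, chromosome 2, 75505857 to 75534985 as the deposited table gives it, its build not being given in the sources used here) was highest in DMBA libraries. It had 59.2, 70.6 and 54.1 FPKM in IR libraries, 76.5, 79.7 and 58.7 FPKM in DMBA libraries and 60.2, 54.3 and 46.6 FPKM in vehicle libraries. DMBA 3, IR 1 and IR 3 lay within the range of the vehicle libraries, and DMBA 1, DMBA 2 and IR 2 above it. The log2 fold change was 0.39 ± 0.17 (SE) for DMBA against vehicle, with an unadjusted p of 0.0396 and an adjusted p of 0.729. It was 0.20 ± 0.17 for IR against vehicle and -0.18 ± 0.17 for IR against DMBA, with adjusted p-values of 0.886 and 0.904. Keap1, the NRF2 inhibitor, had 5.92, 5.85 and 3.25 FPKM after IR, 3.99, 6.12 and 6.60 FPKM after DMBA and 4.91, 2.01 and 4.69 FPKM after vehicle, and all 3 groups overlapped. Its log2 fold change was 0.38 ± 0.38 for IR against vehicle, 0.49 ± 0.38 for DMBA against vehicle and -0.11 ± 0.38 for IR against DMBA, none with an adjusted p under 0.855.

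Sqstm1 (chromosome 11, 50090193 to 50101654) encodes the autophagy receptor p62, which binds KEAP1 and so frees NRF2, and is itself an NRF2 target. It had 308.6, 307.2 and 302.0 FPKM in IR libraries, 224.0, 270.0 and 227.1 FPKM in DMBA libraries and 264.2, 239.4 and 212.0 FPKM in vehicle libraries. The IR libraries lay close together and above all others, whereas DMBA and vehicle libraries overlapped. The log2 fold change was 0.37 ± 0.14 for IR against vehicle (unadjusted p = 0.0152, adjusted p = 0.406) and 0.39 ± 0.14 for IR against DMBA (unadjusted p = 0.011, adjusted p = 0.326). It was -0.02 ± 0.14 for DMBA against vehicle (adjusted p = 0.99). The small MAF partner Mafg had 24.7, 34.9 and 33.8 FPKM after IR, 28.4, 22.3 and 20.8 FPKM after DMBA and 29.1, 28.5 and 31.7 FPKM after vehicle, so that DMBA libraries lay below all vehicle libraries and IR libraries on both sides. Its log2 fold change was 0.43 ± 0.18 for IR against DMBA (adjusted p = 0.508), -0.35 ± 0.18 for DMBA against vehicle (adjusted p = 0.748) and 0.08 ± 0.18 for IR against vehicle (adjusted p = 0.979). Mafg overlaps Sirt7 by 124 bases on the same strand.

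The glutathione genes lay on both sides of vehicle. Gclc and Gclm encode the catalytic and modifier subunits of glutamate-cysteine ligase, the rate-limiting enzyme of glutathione synthesis. Gclc had 19.7, 15.5 and 15.0 FPKM in IR libraries, 12.9, 12.5 and 12.9 FPKM in DMBA libraries and 11.1, 12.7 and 16.8 FPKM in vehicle libraries. IR libraries lay above all DMBA libraries but overlapped vehicle, and the log2 fold change was 0.31 ± 0.22 for IR against vehicle, -0.12 ± 0.22 for DMBA against vehicle and 0.43 ± 0.22 for IR against DMBA, with adjusted p-values of 0.817, 0.962 and 0.674. Gclm (chromosome 3, 122039206 to 122064381) had 3.81, 2.65 and 3.34 FPKM after IR, 4.64, 4.48 and 2.47 FPKM after DMBA and 4.62, 4.66 and 4.74 FPKM after vehicle. The vehicle libraries were nearly equal and every IR library lay below them. In CPM every DMBA library did too, but DMBA 1 (29.0 CPM) only just below vehicle 1 (29.1 CPM). In FPKM, which lacks the TMM factor, DMBA 1 lay just above vehicle 1. For Gclm the log2 fold change was -0.51 ± 0.32 for IR against vehicle, -0.30 ± 0.31 for DMBA against vehicle and -0.21 ± 0.32 for IR against DMBA, with adjusted p-values of 0.764, 0.912 and 0.966. The fitted IR against vehicle values of the 2 subunits thus had opposite signs, though the Gclc libraries overlapped. Neither difference passed the test, and the difference between the genes was not tested. Gsr, which regenerates reduced glutathione, lay between 5.87 and 10.3 FPKM in the 9 libraries, with overlapping groups.

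Slc7a11, the cystine importer that feeds glutathione synthesis and, in mouse melanocytes, yellow pigment, was barely detected. It had 5, 0 and 14 counts in IR libraries, 6, 25 and 18 counts in DMBA libraries and 0, 3 and 0 counts in vehicle libraries, or at most 0.23 FPKM. Every DMBA library lay above every vehicle library, and IR 2 had none. With 3 counts in all vehicle libraries together, the ratio of summed counts scaled to library totals was 16.5 for DMBA against vehicle (95% exact interval 5.31 to 82.6) and 6.35 for IR against vehicle (1.87 to 33.5). These intervals cover counting error only, and the test that includes the spread between libraries gave adjusted p-values of 0.748 and 0.817. Slc7a11 passed the filter on low counts only through IR and DMBA libraries and could only be higher than vehicle. These ratios and p-values are therefore not read as support for a difference. Between IR and DMBA libraries the ratio was 0.386 (0.215 to 0.668), with an adjusted p of 0.958.

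Among conjugation and export genes, 5 of 5 had a negative log2 fold change for IR against DMBA and 5 of 5 a positive one for DMBA against vehicle, and none was called. Both comparisons use the same DMBA libraries, with opposite sign. With Krt14 in the model, as described further on, Abcc1 and Abcc4 turned to -0.07 and -0.06 for DMBA against vehicle and Abcc1 to 0.15 for IR against DMBA, where limma also turned Gsta4 to 0.07. The cytosolic glutathione transferase Gstm1 had 65.0, 52.7 and 82.2 FPKM in IR libraries, 97.5, 93.2 and 93.6 FPKM in DMBA libraries and 92.7, 78.6 and 74.6 FPKM in vehicle libraries. IR libraries lay below all DMBA libraries and overlapped vehicle. On the log2 scale it differed by -0.47 ± 0.18 for IR against DMBA (unadjusted p = 0.0209, adjusted p = 0.442), -0.29 ± 0.18 for IR against vehicle (adjusted p = 0.77) and 0.18 ± 0.18 for DMBA against vehicle (adjusted p = 0.911). Gstp1, the pi-class transferase, had 57.1, 45.6 and 63.0 FPKM after IR, 74.1, 59.6 and 89.8 FPKM after DMBA and 68.0, 80.6 and 56.1 FPKM after vehicle, and all groups overlapped. edgeR gave a log2 fold change of -0.30 ± 0.20 for IR against vehicle, 0.08 ± 0.20 for DMBA against vehicle and -0.38 ± 0.20 for IR against DMBA, with adjusted p-values of 0.796, 0.976 and 0.681. Reads of Gstm1 and Gstp1 may be shared with near-identical family members, so their counts are uncertain to that extent. Gsta4, which conjugates lipid peroxidation products, ranged from 0.31 to 6.60 FPKM with both extremes in DMBA libraries. The exporters of glutathione conjugates ranged from 5.52 to 8.54 FPKM (Abcc1) and from 0.31 to 3.62 FPKM (Abcc4).

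In the thioredoxin system, no gene reached an unadjusted p under 0.05 in any comparison. Txnrd1, the cytosolic thioredoxin reductase, had 29.1, 39.7 and 34.04 FPKM in IR libraries, 39.0, 33.5 and 13.6 FPKM in DMBA libraries and 27.1, 26.5 and 35.6 FPKM in vehicle libraries. DMBA 3 had the lowest level of all 9 libraries, and the groups overlapped. The log2 fold change was 0.22 ± 0.27 for IR against vehicle, -0.07 ± 0.27 for DMBA against vehicle and 0.29 ± 0.27 for IR against DMBA, with adjusted p-values of 0.954, 0.985 and 0.908. Without DMBA 3 the DMBA against vehicle value was 0.26, the opposite direction. Txnrd1 overlaps Eid3 by 1305 bases on the same strand, and Eid3 had 2877 counts where Txnrd1 had 14929. Srxn1, the sulfiredoxin that repairs peroxiredoxins, had 3.74, 1.44 and 1.45 FPKM after IR, 3.43, 5.77 and 2.04 FPKM after DMBA and 1.91, 0.94 and 4.23 FPKM after vehicle, again with overlap throughout. The fitted log2 fold change was -0.09 ± 0.66 for IR against vehicle, 0.65 ± 0.66 for DMBA against vehicle and -0.74 ± 0.66 for IR against DMBA, with adjusted p-values of 0.995, 0.907 and 0.897.

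The remaining thioredoxin genes were steadier. Prdx1, a peroxiredoxin with the stricter core in its promoter window (printed above), had 35.1, 25.0 and 34.04 FPKM in IR libraries, 29.6, 30.6 and 38.1 FPKM in DMBA libraries and 29.3, 24.2 and 27.4 FPKM in vehicle libraries. DMBA libraries lay just above vehicle libraries, at a log2 fold change of 0.24 ± 0.19 (adjusted p = 0.855), and IR libraries overlapped both. Thioredoxin itself, Txn1, had 33.95, 47.8 and 44.4 FPKM after IR, 33.0, 29.0 and 28.4 FPKM after DMBA and 36.2, 22.0 and 33.7 FPKM after vehicle. IR libraries lay above all DMBA libraries and overlapped vehicle. Its log2 fold change for IR against DMBA was 0.53 ± 0.27 (adjusted p = 0.665). Prdx6 lay between 6.05 and 10.65 FPKM.

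Among enzymes that remove peroxide and superoxide, Gpx1 and Gpx2 were higher in DMBA than in vehicle libraries at the unadjusted threshold. Gpx2 and Cat were higher in IR than in vehicle libraries at the same threshold. As given above, Gpx2 could only count as higher than vehicle. Gpx1, the abundant glutathione peroxidase (chromosome 9, 108216102 to 108217542), had 55.0, 44.5 and 29.8 FPKM in IR libraries, 57.5, 76.1 and 78.9 FPKM in DMBA libraries and 30.0, 34.6 and 57.1 FPKM in vehicle libraries. DMBA libraries lay above all IR libraries, and in CPM vehicle 3 slightly exceeded DMBA 1. Its log2 difference was 0.77 ± 0.26 for DMBA against vehicle (unadjusted p = 0.00863, adjusted p = 0.618), -0.67 ± 0.26 for IR against DMBA (unadjusted p = 0.0184, adjusted p = 0.415) and 0.09 ± 0.26 for IR against vehicle (adjusted p = 0.984). Catalase, Cat, had 45.4, 48.1 and 39.4 FPKM after IR, 40.2, 42.6 and 39.4 FPKM after DMBA and 43.7, 24.7 and 29.0 FPKM after vehicle. Vehicle 1 lay among the treated libraries and the other two vehicle libraries below all of them. Fitted on the log2 scale, the difference was 0.46 ± 0.20 for IR against vehicle (unadjusted p = 0.0368, adjusted p = 0.558). Without vehicle 1 it was 0.73, without vehicle 2 it was 0.30, and without IR 2 and vehicle 2 it was 0.22.

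Gpx2, a glutathione peroxidase best known from epithelia of the gut, had higher counts in DMBA than in vehicle libraries. It had 4, 37 and 17 counts in IR libraries, 29, 33 and 44 counts in DMBA libraries and 1, 1 and 4 counts in vehicle libraries. Every DMBA library lay above every vehicle library, while IR 1 matched vehicle 3. The ratio of summed counts was 17.8 for DMBA against vehicle (95% exact interval 7.92 to 49.6, counting error only) and 9.70 for IR against vehicle (4.20 to 27.5). On the log2 scale it differed by 4.01 ± 1.27 for DMBA against vehicle (unadjusted p = 0.00553, adjusted p = 0.565) and 3.20 ± 1.24 for IR against vehicle (unadjusted p = 0.0191, adjusted p = 0.445). Without IR 2 and vehicle 2 the IR against vehicle value was 2.05. Gpx2 passed the filter on low counts only through IR and DMBA libraries and could only be higher than vehicle. Its ratios and p-values against vehicle are therefore not read as support for a difference. Gpx2 (chromosome 12, 76839107 to 76842273) lies wholly inside Fntb on the opposite strand, over all 3167 of its bases, and Fntb had 2555 counts where Gpx2 had 170. Whether counting used the strand is not given in the sources used here, so the source of these reads is uncertain.

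The other peroxide and superoxide enzymes varied less. Gpx4, which reduces lipid hydroperoxides, had 55.7, 70.1 and 66.5 FPKM in IR libraries, 52.9, 45.5 and 53.3 FPKM in DMBA libraries and 54.5, 65.9 and 58.2 FPKM in vehicle libraries. DMBA libraries lay below all others, with a log2 fold change of 0.39 ± 0.18 for IR against DMBA (unadjusted p = 0.041, adjusted p = 0.568). It was -0.27 ± 0.18 for DMBA against vehicle (adjusted p = 0.803). The superoxide dismutases ranged from 8.48 to 15.8 FPKM (Sod1, cytosolic) and from 4.70 to 6.47 FPKM (Sod2, mitochondrial), and their groups overlapped in every comparison. Sod1 overlaps Scaf4, on the opposite strand, by 650 bases.

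Among the genes of NADPH supply, Me1 and Taldo1 were higher in DMBA than in vehicle libraries without overlap, and neither was called. Me1 (ENSMUSG00000032418, chromosome 9, 86463424 to 86578006), the cytosolic malic enzyme, had 9.31, 0.58 and 3.56 FPKM in IR libraries, 7.95, 10.9 and 6.67 FPKM in DMBA libraries and 2.93, 1.58 and 4.21 FPKM in vehicle libraries. The IR libraries spanned both other groups, with IR 1 among the DMBA libraries and IR 2 below all vehicle libraries. edgeR gave a log2 fold change of 1.52 ± 0.61 for DMBA against vehicle (fold 2.87, unadjusted p = 0.0222, adjusted p = 0.678), 0.62 ± 0.60 for IR against vehicle (adjusted p = 0.906) and -0.90 ± 0.60 for IR against DMBA (adjusted p = 0.799). Without a filter on low counts Me1 was called for DMBA against vehicle (adjusted p = 0.0336), the only alternative of 23 that did so, with a range of 0.0336 to 0.999 over them. Taldo1, the transaldolase of the pentose phosphate pathway, had 26.7, 16.7 and 12.03 FPKM after IR, 25.2, 21.4 and 25.8 FPKM after DMBA and 19.3, 11.9 and 13.6 FPKM after vehicle. The fitted log2 fold change was 0.66 ± 0.29 for DMBA against vehicle (unadjusted p = 0.0337, adjusted p = 0.721). The other enzymes of that pathway lay between 8.02 and 16.9 FPKM (G6pdx), 3.43 and 6.57 FPKM (Pgd) and 13.3 and 19.8 FPKM (Tkt), with log2 fold changes from -0.23 to 0.51 over the 3 comparisons. G6pdx and Ikbkg overlap by 19712 bases on opposite strands, so their reads may be mixed.

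In haem and iron handling, Hmox1 and Fth1 were higher in every IR library than in every DMBA and vehicle library. Hmox1 (ENSMUSG00000005413, chromosome 8, 75820249 to 75827217) encodes haem oxygenase, the stress-inducible enzyme that breaks down haem. It had 10.6, 20.4 and 10.6 FPKM in IR libraries, 3.17, 4.50 and 9.71 FPKM in DMBA libraries and 7.14, 3.33 and 4.46 FPKM in vehicle libraries. IR 2 was the highest, while IR 1 and IR 3 lay a little above DMBA 3. Its log2 difference was 1.49 ± 0.48 for IR against vehicle (fold 2.81, unadjusted p = 0.00628, adjusted p = 0.284) and 1.33 ± 0.48 for IR against DMBA (fold 2.51, unadjusted p = 0.0129, adjusted p = 0.352). For DMBA against vehicle it was 0.17 ± 0.48 (adjusted p = 0.979). Without IR 2 and vehicle 2 the IR against vehicle value was 0.87, with an adjusted p of 0.834 in a range of 0.125 to 0.834 over the alternatives.

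Fth1, the ferritin heavy chain, had 206.9, 187.5 and 186.5 FPKM in IR libraries, 146.8, 184.0 and 173.0 FPKM in DMBA libraries and 161.2, 150.2 and 129.4 FPKM in vehicle libraries. Fitted on the log2 scale, the difference was 0.41 ± 0.14 for IR against vehicle (fold 1.33, unadjusted p = 0.0101, adjusted p = 0.348), 0.25 ± 0.14 for IR against DMBA (adjusted p = 0.727) and 0.16 ± 0.14 for DMBA against vehicle (adjusted p = 0.893). For the light chain, Ftl1, all groups overlapped. Ftl1 had 251.6, 219.9 and 209.8 FPKM after IR, 252.8, 249.3 and 258.7 FPKM after DMBA and 260.9, 218.6 and 202.5 FPKM after vehicle. On the log2 scale it differed by 0.01 ± 0.15 for IR against vehicle (adjusted p = 0.998), a value that turned negative under library totals, and 0.12 ± 0.15 for DMBA against vehicle (adjusted p = 0.927). Against DMBA, IR libraries differed by -0.12 ± 0.15 (adjusted p = 0.953). Both ferritins have processed pseudogenes, which can share their reads, and the difference between the chains was not tested. Blvrb, a biliverdin reductase, ranged from 0.57 to 7.62 FPKM with overlapping groups.

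Osgin1, an NRF2-responsive growth inhibitor, had 28, 19 and 24 counts in IR libraries, 41, 74 and 16 counts in DMBA libraries and 0, 16 and 22 counts in vehicle libraries. IR and DMBA libraries both overlapped the vehicle libraries. The ratio of summed counts was 1.87 for IR against vehicle (95% exact interval 1.25 to 2.86) and 3.48 for DMBA against vehicle (2.41 to 5.13), both for counting error only. With the spread between libraries the log2 fold changes were 0.84 ± 1.09 for IR against vehicle, 1.67 ± 1.10 for DMBA against vehicle and -0.83 ± 1.07 for IR against DMBA, with adjusted p-values of 0.955, 0.807 and 0.958.

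**Figure D3:**
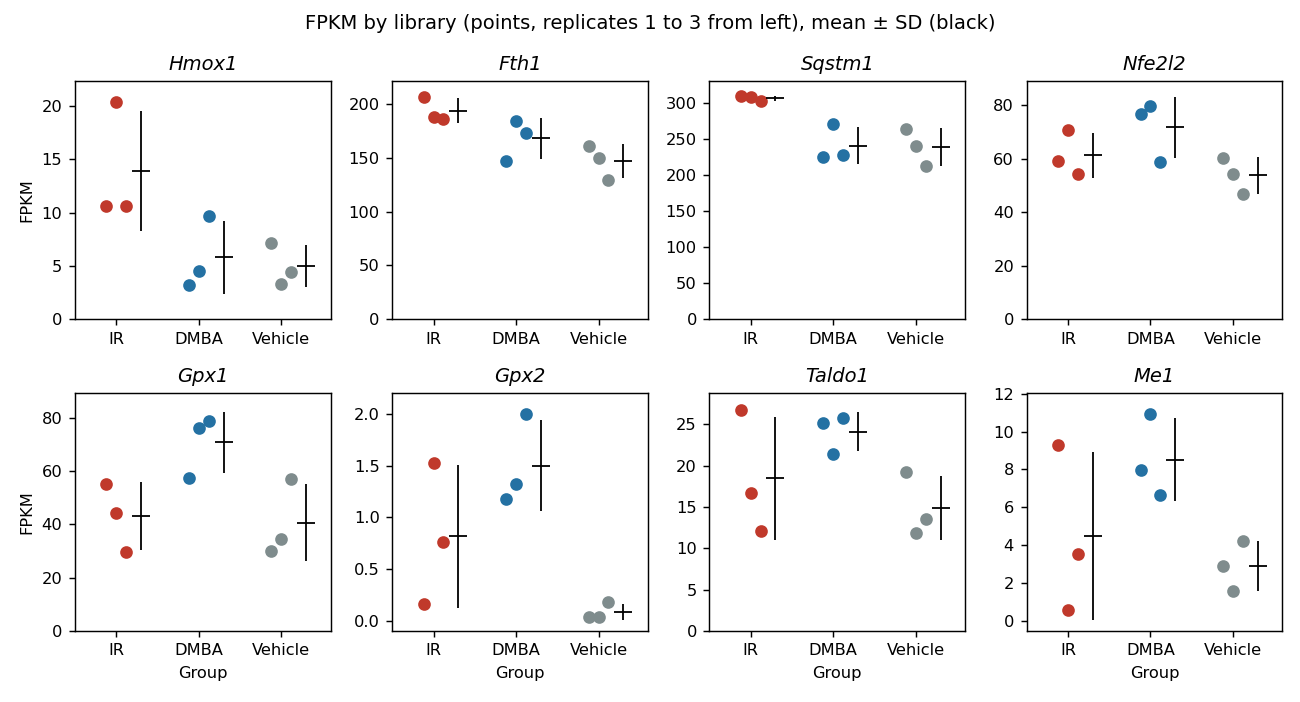
FPKM of 8 genes in each library (points, replicates 1 to 3 from left to right within a group) with the mean and SD of each group in black, groups ordered IR, DMBA and vehicle. Sqstm1 stands at 302.0 to 308.6 FPKM in IR libraries against 212.0 to 264.2 FPKM in vehicle libraries, and Me1 spreads from 0.58 to 9.31 FPKM within the IR libraries alone.

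Levels were then set beside Krt14, which differed most within the IR group. Krt14 had 1396.9, 259.9 and 510.8 CPM in IR libraries, 981.5, 1538.0 and 1154.1 CPM in DMBA libraries and 608.9, 580.5 and 729.1 CPM in vehicle libraries. DMBA libraries lay above all vehicle libraries, at a log2 fold change of 0.94 ± 0.37 (unadjusted p = 0.0205, adjusted p = 0.665), and IR libraries on both sides of the vehicle libraries. This Krt14 difference was called with only the 2 groups compared (edgeR, adjusted p = 0.00808), without a filter on low counts (2.72e-06) and without IR 1 (0.0401). These were the only 3 of 21 alternatives to call it, over a range of adjusted p from 2.72e-06 to 0.987. Each gene was tested for a slope on log2 Krt14 CPM centred within its group, beside the 3 group means, so that differences between groups do not enter. Of the 34 genes, 1 was called, Me1, where 1.62% of 16050 genes were, 1.56% with a positive and 0.0561% with a negative slope. Me1 rose with Krt14 by 1.48 ± 0.28 log2 units per log2 unit (edgeR, adjusted p = 0.00456). It also did so against the summed basal markers, at 2.04 ± 0.41 (adjusted p = 0.00681). The call rested on the IR group: without IR 1 the slope was 2.15 ± 0.60 (adjusted p = 0.389) and without IR 2 it was 1.03 ± 0.37 (adjusted p = 0.506), over a range of alternatives from 8.06e-05 to 0.506.

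Of the other 33 genes, the smallest p-values were those of Abcc4, with a slope of 1.15 ± 0.38 (unadjusted p = 0.00639, adjusted p = 0.19), Abcc1, with 0.26 ± 0.12 (unadjusted p = 0.0324) and Mafg, with -0.23 ± 0.11 (unadjusted p = 0.0497). In all, 3 genes had a positive and 1 a negative slope at an unadjusted p under 0.05, against 6.45% and 3.44% of all genes (9.89% in either direction), and the median slope was 0.05 beside -0.01 over all genes. For comparison, the slope was called, and positive, for 13 of 15 tested basal keratinocyte markers, 8 of 14 differentiated epidermis markers and 0 of 13 melanocyte markers. Group differences were also computed with log2 Krt14 CPM in the model. The DMBA against vehicle value of Me1 was 0.21 with Krt14 in the model and 1.52 without it, and that of Abcc4 was -0.06 with it and 0.99 without it. Srxn1 had -0.01 with Krt14 in the model and 0.65 without it, and Taldo1 had 0.44 and 0.66. Counted over the 34 genes, the value moved by over 0.2 in 2 for IR against vehicle, 13 for DMBA against vehicle and 16 for IR against DMBA. Krt14 itself differed by 0.18, 0.94 and -0.76 log2 units in these comparisons. The share over all genes tested was not computed, so these counts are not read as a trait of the 34. Hmox1 had 0.88 with Krt14 in the model and 1.33 without it for IR against DMBA, where Mafg had 0.16 and 0.43 and Gpx1 -0.45 and -0.67. For IR against vehicle Gpx2 had 2.47 with Krt14 in the model and 3.20 without it, while Hmox1 had 1.38 and 1.49, Fth1 had 0.41 in both and Sqstm1 had 0.37 in both. Between DMBA and vehicle libraries Gpx2 had 5.01 with it and 4.01 without it, Blvrb 0.56 and 1.05, and Gpx1 0.58 and 0.77. What share of each transcript came from keratinocytes was not tested.

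**Figure D4:**
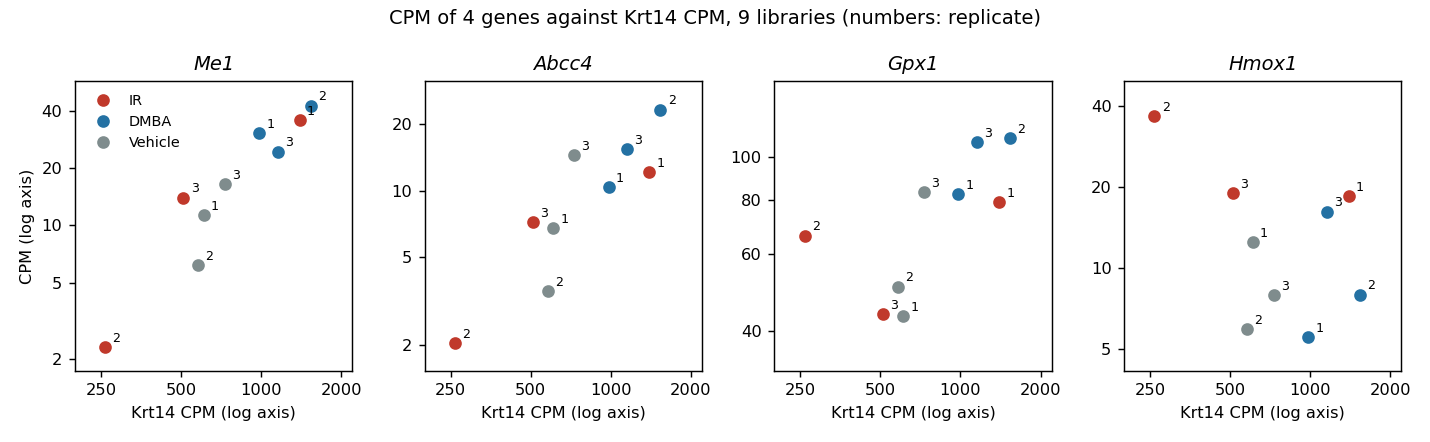
CPM of Me1, Abcc4, Gpx1 and Hmox1 against Krt14 CPM in the 9 libraries (points, coloured by group and numbered by replicate; both axes logarithmic). Me1 and Abcc4 are lowest in IR 2, where Krt14 was 259.9 CPM, and high in DMBA 2, where it was 1538.0 CPM, whereas Hmox1 is highest in IR 2.

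Beyond the 34, 131 further genes of the same pathways were listed, and 117 were tested. For IR against vehicle 1 of them was called, higher, and 0 lower, beside 0.71% and 0.0249% of all genes. That gene was Ephx1, the microsomal epoxide hydrolase, which acts on xenobiotic epoxides. It had 134.2, 127.5 and 78.7 FPKM in IR libraries, 14.04, 17.1 and 32.6 FPKM in DMBA libraries and 20.3, 19.0 and 8.16 FPKM in vehicle libraries. Every IR library exceeded every other library, and Ephx1 rose after IR by a log2 fold change of 2.85 ± 0.33 against vehicle (adjusted p = 7.07e-05) and was higher after IR by 2.47 ± 0.33 against DMBA (adjusted p = 0.000235). The call held in 22 of 23 alternatives for both comparisons. For IR against DMBA, 2 of the 117 were called higher (Ephx1 and Flvcr1) and 1 lower (Aldh3a1), beside 0.878% and 0.0997% of all genes. DESeq2 called 3 of the 117 for IR against vehicle and 6 for IR against DMBA, beside 251 and 301 of 16051 genes. The 6 include Nqo1, which passed the filter on low counts only through DMBA and vehicle libraries and so could only count as lower after IR. With limma, 1 and 2 of 108 were called, beside 83 and 86 of the 14430 genes that both it and edgeR tested.

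For DMBA against vehicle 0 of the 117 were called by edgeR, where 0.0374% of all genes were. DESeq2 called 1 of the 117, beside 27 of 16051 genes, and limma 0 of 108, beside 1 of 14430. Where unadjusted edgeR p-values under 0.05 are counted, 8 of the 117 had a higher and 3 a lower level, beside 3.85% and 2.85% of all genes. The 8 include Ugt1a7c, which passed the filter on low counts only through DMBA libraries and so could only count as higher. The 3 include Chac2 and Mthfd2, which passed it only through IR and vehicle libraries and so could only count as lower. The smallest p was that of Aldh3a1, an aldehyde dehydrogenase of epithelia that responds to aromatic hydrocarbons. It had 15.7, 2.23 and 1.09 FPKM in IR libraries, 34.8, 54.4 and 68.2 FPKM in DMBA libraries and 4.42, 5.73 and 7.54 FPKM in vehicle libraries. Every DMBA library exceeded every other library. edgeR gave a log2 fold change of 3.11 ± 0.61 for DMBA against vehicle (unadjusted p = 7.39e-05, adjusted p = 0.126), and it was called lower for IR against DMBA, at -3.01 ± 0.61 (adjusted p = 0.0154). That call was lost without DMBA 3 (adjusted p = 0.0871) and held in 17 of 23 alternatives, over a range of 2.7e-20 to 0.209. The size rested on IR 1: without it the difference was -4.89, and over single libraries left out the range was -4.89 to -2.52. It was -2.29 with Krt14 in the model, and -2.61 (adjusted p = 0.0766) without IR 2 and vehicle 2. Aldh3a1 also rose with Krt14 within groups, at 1.25 ± 0.24 (adjusted p = 0.0046), but without IR 1 the slope was -0.10.

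Nqo1, the quinone reductase often used as an NRF2 readout, had 3, 2 and 7 counts in IR libraries, 54, 28 and 72 counts in DMBA libraries and 15, 1 and 17 counts in vehicle libraries. Every DMBA library lay above all other libraries, at between 2.29 and 6.68 FPKM. The fitted log2 fold change was 2.20 ± 1.10 for DMBA against vehicle (unadjusted p = 0.0604, adjusted p = 0.748) and -3.59 ± 1.18 for IR against DMBA (unadjusted p = 0.00695, adjusted p = 0.254). DESeq2 called the second (adjusted p = 0.0351), the only alternative of 23 to do so, over a range of 0.0351 to 0.765. Its slope on Krt14 within groups was 0.02 ± 0.89, and for IR against vehicle the log2 fold change was -1.40 ± 1.12 (adjusted p = 0.866). Nqo1 passed the filter on low counts only through DMBA and vehicle libraries and could only be lower after IR. Its p-values for IR, and the DESeq2 call, are therefore not read as support for a difference.

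In haem transport, 1 further gene was called. Flvcr1, a haem exporter, had 36.1, 36.9 and 32.9 FPKM in IR libraries, 22.0, 21.1 and 18.4 FPKM in DMBA libraries and 26.0, 22.1 and 24.4 FPKM in vehicle libraries, so that IR libraries lay above all others. It was called for IR against DMBA, at 0.83 ± 0.16 (adjusted p = 0.014), and not for IR against vehicle, at 0.56 ± 0.16 (adjusted p = 0.191). The first call was lost without IR 2 (adjusted p = 0.0742), without DMBA 3 (adjusted p = 0.0778) and without both IR 2 and vehicle 2 (0.78, adjusted p = 0.089). It was also lost with Krt14 in the model (0.805, edgeR, adjusted p = 0.0514). The call held in 19 of 23 alternatives over a range of 5.58e-05 to 0.089. Mthfd1, a folate enzyme that yields NADPH, had 16.3, 17.9 and 12.3 FPKM after IR, 8.52, 12.8 and 13.7 FPKM after DMBA and 5.19, 6.57 and 10.8 FPKM after vehicle. IR libraries lay above all vehicle libraries, at a log2 fold change of 1.06 ± 0.28 (unadjusted p = 0.00148, adjusted p = 0.125).

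Of the remaining pathway genes, Mgst2 had the smallest unadjusted p for IR against vehicle (edgeR, adjusted p = 0.359). Mgst2 had 0 counts in all 3 IR libraries, 18, 15 and 8 in DMBA libraries and 0, 21 and 13 in vehicle libraries. It passed the filter on low counts only through DMBA and vehicle libraries. It could therefore only be lower after IR in either comparison, and its p-values are not read as support for a difference. Hk2 (log2 fold change -0.78 ± 0.33), Hk1 (0.52 ± 0.22) and Maff (0.55 ± 0.26) also had an unadjusted p under 0.05. For DMBA against vehicle so did Ugt1a7c, Oplah (0.97 ± 0.25), Gstt2 (1.10 ± 0.48), Chac2 (-2.16 ± 1.01), Txnrd3 (-0.84 ± 0.30), Txnip (0.41 ± 0.17), Trim16 (2.21 ± 0.95), Slc48a1 (0.58 ± 0.25), Mthfd2 (-3.17 ± 0.93) and Mthfd1 (0.60 ± 0.28). Oplah, which recycles glutamate within glutathione turnover, had 6.89, 7.74 and 5.51 FPKM in IR libraries, 10.3, 14.1 and 14.6 FPKM in DMBA libraries and 7.88, 4.88 and 6.60 FPKM in vehicle libraries, all DMBA libraries lying above the rest. Ugt1a7c, a glucuronosyltransferase, had 0, 3 and 0 counts after IR, 12, 48 and 39 after DMBA and 0 in all vehicle libraries (edgeR, unadjusted p = 0.00205, adjusted p = 0.518 for DMBA against vehicle). It passed the filter on low counts only through DMBA libraries and could only be higher there, so its p-values are not read as support for a difference. None of these genes was called. In DMBA libraries Chac2 had 8, 10 and 9 counts and Mthfd2 had 4, 3 and 5. Both passed the filter on low counts only through IR and vehicle libraries, so they could only be lower after DMBA than in either other group. Their p-values in comparisons with DMBA are therefore not read as support for a difference. For IR against DMBA, Mgst2 (edgeR, adjusted p = 0.301), Oplah (-0.91 ± 0.25), Gstt2 (-1.40 ± 0.48), Txnip (-0.38 ± 0.17), Txnrd3 (0.63 ± 0.30) and Mthfd2 (3.38 ± 0.94) had an unadjusted p under 0.05 and were not called. For the slope on Krt14, 3 of the 117 were called, all positive, beside 1.56% of all genes. Besides Aldh3a1, Gstm2 (3.97 ± 0.88, adjusted p = 0.017) and Trim16 (2.48 ± 0.52, adjusted p = 0.00957) rose with Krt14 within groups. The Gstm2 call was lost without any 1 of the IR libraries, and the Trim16 call without IR 1 or IR 2. At an unadjusted p under 0.05, the slopes of Nfe2l1 (0.29 ± 0.10), Usp11 (-0.38 ± 0.15), Nfe2l3 (1.56 ± 0.73), Selenom (-0.97 ± 0.35), Txnl1 (0.43 ± 0.17) and Prdx5 (0.39 ± 0.18) did not pass the adjustment.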

How the data were processed

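RNA from FACS-purified skin cells was sequenced in 9 libraries, 3 each for IR, DMBA and vehicle, with groups and replicate numbers taken from the sample titles. Per the labels' protocols, libraries were made with a kit that marks strand. HISAT2 2.0.1, HTSeq 0.6.1, cutadapt 1.9.1 and bcl2fastq 2.17.1.14 are named, without roles, per the submitters' processing notes. Genome build, annotation and strand setting: not given in the sources used here. The table the authors deposited gives raw read counts for every gene in each library. It also holds FPKM that the authors derived from those counts, which scale a count by exonic length and library total. Recomputed FPKM differed from the deposited values by no more than 0.0051 in 100% of cells. Rows with no symbol, 1438 in all, took at most 0.175% of a library's counts and stayed in the tests as unnamed genes. There were 0 further columns of per-sample values.

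The main test was that of edgeR 4.0.16 (R 4.3.3) with filterByExpr, TMM scaling, 1 mean per group over all 9 libraries, and the two-sided quasi-likelihood test. Benjamini-Hochberg adjustment ran over 16051 genes. The biological coefficient of variation was 49%. CPM are counts scaled by TMM library size. Standard errors were derived from the log2 fold change and its F statistic. The slope on Krt14 used the same test, leaving out Krt14 itself. Marker sums were compared by exact permutation. Intervals of count ratios are exact at 95%. Alternatives were DESeq2 1.42.0, limma 3.58.1 on log2(FPKM + 1) for genes with at least 1 FPKM in 3 libraries, pseudocounts of 0.1 and 5, other filters and scalings, only the 2 groups compared, a Krt14 covariate, the replicate block and leaving out each library. A basal marker covariate, and a fit with 7 libraries, were added after seeing the data. The tests were checked on simulated data. No pair of libraries in a group was a duplicate, with chi-square per degree of freedom between 14.95 and 36.29.

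The members and the lists were chosen with earlier results of these data known. Named in full were the regulators and main targets (Nfe2l2, Keap1, Hmox1, Gclc, Gclm, Slc7a11, Txnrd1, Srxn1 and Osgin1), the 5 most abundant members, members with an unadjusted p under 0.05, and members called, or with the smallest p, for the Krt14 slope. Other values named, such as those of Prdx1, Txn1 and Mafg, were picked after seeing them. Genes of the other lists were named when called, or else up to 3 per list and comparison by the smallest unadjusted p under 0.05, with Nqo1 and Krt14 always. Promoter windows came from RefSeq, GRCm38.p6.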

Additional observations from a re-analysis of the deposited data

How the results depend on the processing

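Over 51 named fold changes and 1161 alternatives, 1125 kept direction and side of the threshold, 35 turned direction and 1 passed the threshold (Me1, above). Members called stayed at 0 in each alternative except for DMBA against vehicle without a filter on low counts, where 1 was called. For the Krt14 slope the number was 0 to 1 when single libraries were left out. Counts of all genes called were less steady. For IR against vehicle 118 became 236 without a filter, 251 with DESeq2, 69 with limma at a pseudocount of 0.1, 49 with limma unfiltered, 63 with 7 libraries and 76 to 131 when single libraries were left out. For DMBA against vehicle 6 became 159 without a filter, 44 with only the 2 groups compared, 27 with DESeq2, 1, 1 and 2 with limma at pseudocounts of 1, 0.1 and 5, 1 with limma unfiltered and 2 to 25 when single libraries were left out. For IR against DMBA 157 became 371 without a filter, 301 with DESeq2, 89, 73 and 101 with limma at pseudocounts of 1, 0.1 and 5, 58 with limma unfiltered and 96 to 421 when single libraries were left out. The cause of these shifts was not tested.

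Of the fold changes named, those that turned for IR against vehicle were Keap1 (-0.0692 with 7 libraries), Srxn1 (0.00605 with limma at a pseudocount of 0.1, -0.68 to 0.64 over single libraries left out) and Ftl1 (-0.00145 with library totals, -0.00549 with 7 libraries, -0.0677 to 0.117 over single libraries). For DMBA against vehicle they were Sqstm1 (0.0122 with library totals, 0.0118, 0.0118, 0.0116 and 0.0118 in the 4 limma fits, -0.135 to 0.0541 over single libraries), Txnrd1 (0.0749 with Krt14 and 0.0807 with basal markers as covariate, -0.36 to 0.26 over single libraries), Srxn1 (-0.013 and -0.0668 with those covariates), Hmox1 (-0.0521 with 7 libraries, -0.40 to 0.52 over single libraries), Gclc (-0.246 to 0.0661) and Gstp1 (-0.0534 to 0.216). For IR against DMBA they were Keap1 (0.00407 and 0.0897 with those covariates, -0.29 to 0.12 over single libraries) and Txnrd1 (-0.0485 to 0.583). Krt14 itself, for IR against vehicle, turned to -0.00246 with the replicate block, to -0.17, -0.17, -0.16 and -0.17 in the 4 limma fits, and ranged from -0.73 to 0.58 over single libraries left out, with -0.73 without IR 1. Over single libraries left out, the Krt14 slope of Aldh3a1 ranged from -0.10 to 2.20 and that of Nqo1 from -0.75 to 1.30.

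Summed marker levels turned for IR against vehicle over single libraries left out, from -725.9 to 753.8 FPKM for basal and from -117.4 to 533.5 FPKM for differentiated markers. On the median log2 scale the differentiated markers gave -0.19 for IR against vehicle and the melanocyte markers 0.02 for DMBA against vehicle. Melanocyte sums ranged from -57.5 to 262.7 FPKM for IR against vehicle, from -121.2 to 29.1 FPKM for DMBA against vehicle and from -32.7 to 287.6 FPKM for IR against DMBA. Correlations gave no sign that the replicate numbers pair libraries over the 3 groups. With 3 libraries per group, they cannot exclude such pairing. Correlations of same-numbered deviations lay between -0.092 and 0.043, and 0 libraries correlated best with their own number in both other groups. Vehicle 2 did correlate best with IR 2, at 0.043. With the replicate block, genes called were 107 for IR against vehicle, 5 for DMBA against vehicle and 142 for IR against DMBA, and members called were 0 in each. Depth limits Slc7a11, Gpx2 and Osgin1, with 71, 170 and 240 counts over all libraries.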
